A study of Mus musculus with 10 samples.

Results

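The lysosome genes described here are 42 genes taken by name from the 55487 genes of the count tables, and every one of the 42 matched a single gene. They code for proteins of the lysosomal membrane, the enzymes of the lumen, subunits of the proton pump, a calcium channel and the transcription factors that act on such genes. RNA was sequenced from mammary epithelial cells (MECs) and from macrophages of 10-wk-old female BALB/c mice in diestrus, to ask which genes change when the transcription factor C/EBPβ is lost from macrophages. WT mice were Cebpb fl/fl without Csf1r-Cre, so the controls carry the floxed allele as well, and CebpbΔM mice were Cebpb fl/fl with Csf1r-iCre, a genotype that the sample labels call a C/EBPb knockdown. The Csf1r promoter drives Cre in myeloid cells of the whole animal, so in MECs the comparison concerns epithelium beside deleted macrophages and not deletion in the epithelium itself. There were 2 WT and 2 CebpbΔM libraries of MECs, purified by negative selection against other lineages. Of macrophages, taken with a kit that selects cells carrying F4/80, there were 2 WT and 4 CebpbΔM libraries. Several glands went into each preparation, and the sources used here do not say that each library came from a separate mouse, so p-values measure the spread between these libraries, which may be technical.

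Lysosomes are the acidic organelles in which cells break down proteins, sugar chains and lipids that arrive by endocytosis, phagocytosis and autophagy. The V-ATPase pumps protons into the lumen, hydrolases such as the cathepsins and glycosidases work at that low pH, and heavily glycosylated membrane proteins line the limiting membrane. The transcription factors TFEB and TFE3 bind the CLEAR element, whose core is CACGTG, in the promoters of many lysosomal genes, and macrophages, which digest what they engulf, are rich in lysosomes.

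The macrophage libraries held 16935000 to 20174722 counts each, and those of MECs 25310926 to 27008166. Levels are given as CPM, counts relative to library size, with the sizes scaled by trimmed mean of M-values (TMM) over all 10 libraries. Cebpb, the targeted gene, had 13 and 15 counts (0.65 and 0.71 CPM) in WT macrophages. It had 16, 13, 5 and 4 counts in the macrophage libraries labelled CebpbΔM 4, 5, 6 and 7, and was under the filter for testing there. The libraries labelled CebpbΔM 4 and 5 were thus not below WT. With so few counts in WT as well, these values cannot show whether the gene was deleted. The paper reported C/EBPβ protein as undetectable in bone marrow-derived macrophages of CebpbΔM mice and as absent from CSF1R+ cells of their glands. By qRT-PCR it also found no detectable Cebpb mRNA in such bone marrow-derived macrophages after LPS. In MECs, Cebpb had 25 and 28 counts in WT and 69 and 42 in CebpbΔM. The 12 macrophage markers summed to 3950 and 6150 CPM in WT macrophages and to between 7148 and 9457 CPM in the libraries labelled CebpbΔM, with none at 0 in any macrophage library. In MECs they summed to between 238 and 429 CPM. There, Cd14 had a mean of 315 CPM in WT MECs, while Adgre1, which codes for F4/80, was at 0.30 CPM and at 0 in CebpbΔM MECs. The 12 luminal epithelial markers summed to between 28100 and 36027 CPM in MECs, and still to 9502 and 9813 CPM in WT macrophages and to between 5352 and 6713 CPM in the libraries labelled CebpbΔM, with none at 0. Both preparations also held fibroblast markers, whose list of 8 summed to between 5308 and 6494 CPM in MECs. In WT macrophages this list summed to 7169 and 6748 CPM, and in the libraries labelled CebpbΔM to between 3406 and 7796 CPM. The part of fibroblasts in the lysosome gene values was not tested. In bulk samples, fewer cells of a type and less RNA per cell cannot be told apart.

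Promoter windows of 300 bases, from 250 bases before to 50 after the RefSeq start (build GRCm38.p6), were at hand for 35 of the 42 genes. Ctsh, Asah1, Ctsb, Atp6v1h, Atp6v1b2, Atp6v0d2 and Npc1 had none in the table. CACGTG, which reads the same on both strands, stood in the windows of 11 of the 35 genes (31.4%) and in those of 8.09% of all 27025 genes in the table. Its extension TCACGTGA stood in 6 of the 35, namely Atp6v0d1, Atp6v1a, Ctsa, Ctsd, Gla and Mcoln1 (17.1%), against 1.12% of all genes, and the full palindromic CLEAR element in 0 of the 35, against 0.37%. The longer motifs contain CACGTG, so these counts overlap. TTGCNNAA, a C/EBP site, was searched on both strands and stood in 8 of the 35 (22.9%), against 12.2% of all genes, and TTGCGCAA in 0 of the 35, against 0.21%. The windows of Lamp1, Glb1 and Gaa are printed because they show how CACGTG is placed, from 4 copies to 1. That of Cd68 is printed because it holds a C/EBP site. The printed Gaa stretch also holds a TTGCNNAA match, on the other strand (TTTTGCAA), which is not capitalised. Each is written 5′ to 3′ on the gene's strand and ends at the start of RefSeq or before the gene of the count tables begins. Capitals mark CACGTG, and in Cd68 TTGCNNAA. The Lamp1 stretch is chr8:13158911-13159160 (+), Glb1 is chr9:114400828-114401075 (+), Gaa is chr11:119267713-119267886 (+) and Cd68 is chr11:69666171-69666420 (-).
Lamp1: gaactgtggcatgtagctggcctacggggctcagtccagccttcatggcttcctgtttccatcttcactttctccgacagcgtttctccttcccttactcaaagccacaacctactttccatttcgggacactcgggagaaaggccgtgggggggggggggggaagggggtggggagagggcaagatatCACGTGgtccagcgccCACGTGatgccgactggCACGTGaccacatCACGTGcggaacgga
Glb1: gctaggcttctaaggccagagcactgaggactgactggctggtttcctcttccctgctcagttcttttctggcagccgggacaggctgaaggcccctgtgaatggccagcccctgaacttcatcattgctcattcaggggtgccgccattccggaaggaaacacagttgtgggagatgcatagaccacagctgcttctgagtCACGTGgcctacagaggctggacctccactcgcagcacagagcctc
Gaa: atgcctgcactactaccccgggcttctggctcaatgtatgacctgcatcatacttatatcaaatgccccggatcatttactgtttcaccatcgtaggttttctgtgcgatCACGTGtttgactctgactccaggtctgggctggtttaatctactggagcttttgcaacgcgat
Cd68: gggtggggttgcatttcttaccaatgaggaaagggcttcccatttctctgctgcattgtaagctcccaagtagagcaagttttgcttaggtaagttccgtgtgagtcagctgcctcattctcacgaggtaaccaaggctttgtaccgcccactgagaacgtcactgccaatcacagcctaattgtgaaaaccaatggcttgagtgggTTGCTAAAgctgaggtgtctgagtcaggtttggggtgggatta

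Counted so that the last base before the start is -1, the 4 copies at Lamp1 began at -61, -45, -28 and -15, and the 2 at Mcoln1 at -71 and -45. Those at Ctsd began at -245 and -98, and those at Gla at -227 and -194. The C/EBP site at Cd68 began at -43 and the one at Gaa at -90. A match is a description of these letters and not of binding.

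Over all 42 genes, the mean log2 CPM was 6.55 and 6.50 in WT MECs, 6.58 and 6.33 in CebpbΔM MECs, 7.53 and 7.46 in WT macrophages and 7.69, 7.87, 7.89 and 8.02 in the macrophage libraries labelled CebpbΔM 4, 5, 6 and 7. The 2 cell types did not overlap, and neither did the 2 genotypes in macrophages, whereas the genotypes overlapped in MECs. Atp6v0d2, at 0 counts in every MEC library and in WT macrophage 5, lowers the means of these libraries. The V-ATPase genes alone had a mean of 5.74 in WT macrophage 5 and of 6.94 in WT macrophage 4. As a share of all counts, the 42 genes took between 0.796% and 0.867% in MECs, 1.64% and 1.81% in WT macrophages and between 1.96% and 2.55% in the libraries labelled CebpbΔM. No p is given for these means, since the genes were chosen with earlier results known.

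**Figure D1:**
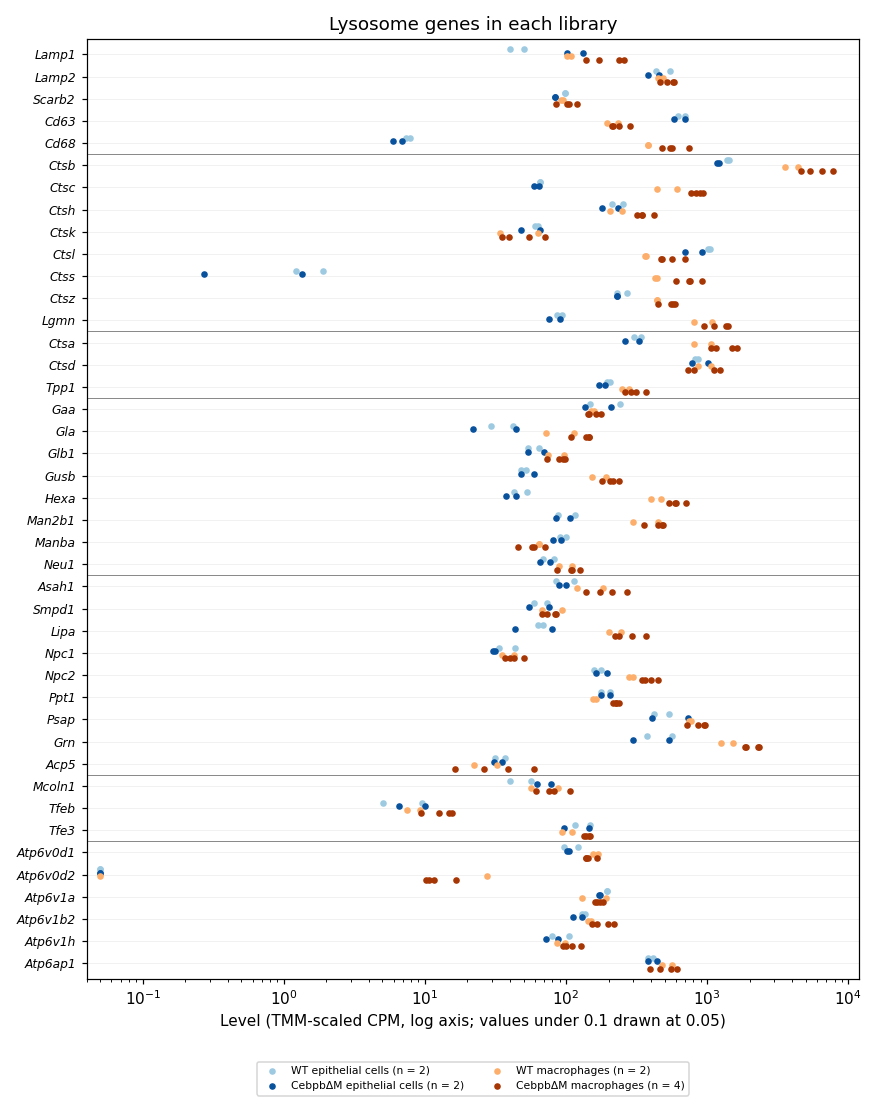
Level of each of the 42 lysosome genes in each of the 10 libraries, in TMM-scaled CPM on a log axis, with genes grouped by role and 1 point per library (pale blue, WT MECs; dark blue, CebpbΔM MECs; orange, WT macrophages; brown, CebpbΔM macrophages). Ctss and Cd68 stand farthest apart between the cell types, Ctsb reaches 7788 CPM in a macrophage library, and Atp6v0d2 is at 0 in all 4 MEC libraries and in WT macrophage 5.

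To compare genes with each other, levels were divided by exon length and are then CPM per kilobase. In WT MECs the highest level was that of Ctsd, the aspartic protease cathepsin D, at 360 ± 12.6 CPM per kilobase (SD, n = 2). Ctsb, the cysteine protease cathepsin B, followed at 233 ± 6.55 (SD, n = 2), then Cd63, a tetraspanin of late endosomes, at 178 ± 14.6 and Psap, the precursor of the saposins that present sphingolipids to their hydrolases, at 175 ± 31.4 CPM per kilobase (SD, n = 2 each). Cd63 and Psap did not differ beyond their spread. In WT macrophages Ctsb was first at 661 ± 102 CPM per kilobase, and Ctsd at 408 ± 60.0, Lgmn, the asparaginyl endopeptidase legumain, at 405 ± 84.8 and Grn, which codes for progranulin, at 399 ± 53.7 were within their spread of each other (SD, n = 2 each). Ctss, the cathepsin S that trims the invariant chain of MHC class II, was 41st of the 42 genes in both MEC groups, and 5th in WT macrophages and 3rd in the libraries labelled CebpbΔM. Tfeb was the lowest in both macrophage groups, at 1.47 ± 0.22 CPM per kilobase in WT (SD, n = 2), and 40th in both MEC groups.

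WT macrophages were compared with WT MECs to ask which lysosome genes differ between the cell types. Of the 42 genes, 17 were higher and 2 lower in macrophages by edgeR's quasi-likelihood (QL) test at a Benjamini-Hochberg (BH) adjusted p of 0.05 or less, where 14.8% of the 18323 genes tested were higher and 10.7% lower (25.5% in either direction). At an unadjusted p under 0.05, 19 were higher and 3 lower, where 21.0% and 16.8% of all genes were. The 2 groups did not overlap for 23 genes higher and 7 lower, against 33.8% and 31.3% of all genes (65.1% in either direction). The log2 fold change was above 0 for 29 of the 42 and for 52.7% of all genes. The median log2 fold change was 0.47 over the 42 genes and 0.06 over all genes. The cell types came from separate preparations and count tables, so cell type and experiment cannot be told apart. Markers of other cells moved with this contrast too. In WT macrophages 7 of 7 endothelial, 8 of 9 dendritic cell and 3 of 4 adipocyte markers tested were called higher, and their lists summed to 1638 and 1810, 341 and 484, and 409 and 535 CPM, against 116 to 156, 77.2 to 95.5 and 31.1 to 32.3 CPM in WT MECs. Their part in the values of the lysosome genes was not tested. Macrophages were compared with MECs of CebpbΔM mice as well. That contrast is between other libraries than the WT contrast. Both came from the same fit over all 10 libraries with a shared dispersion, so they are not independent. In CebpbΔM, 22 genes were higher and 3 lower, where 18.9% and 14.7% of all genes were (33.7% in either direction). The median was 0.61 against 0.07 over all genes. All 19 genes called in WT were also called there, in the same direction. Without CebpbΔM MEC 3, the count in CebpbΔM was 16 in place of 25, and the share of all genes called was 25.3% in place of 33.7%. The calls lost when 1 library was left out were those of Lamp1, Ctsz, Gla, Npc2, Atp6v0d1 and Atp6v0d2 in WT and those of Lamp1, Ctsh, Ctsl, Tpp1, Manba, Neu1, Asah1, Atp6v0d1, Atp6v0d2 and Atp6v1b2 in CebpbΔM. All of the latter but Ctsl were lost without CebpbΔM MEC 3, and the call of Ctsl was lost without CebpbΔM MEC 1. Over all alternatives, Ctsl was called in only 7 of 18 in CebpbΔM, Manba in 10 and Neu1 in 11. Atp6v0d1 was called in only 5 of 17 in WT.

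**Figure D2:**
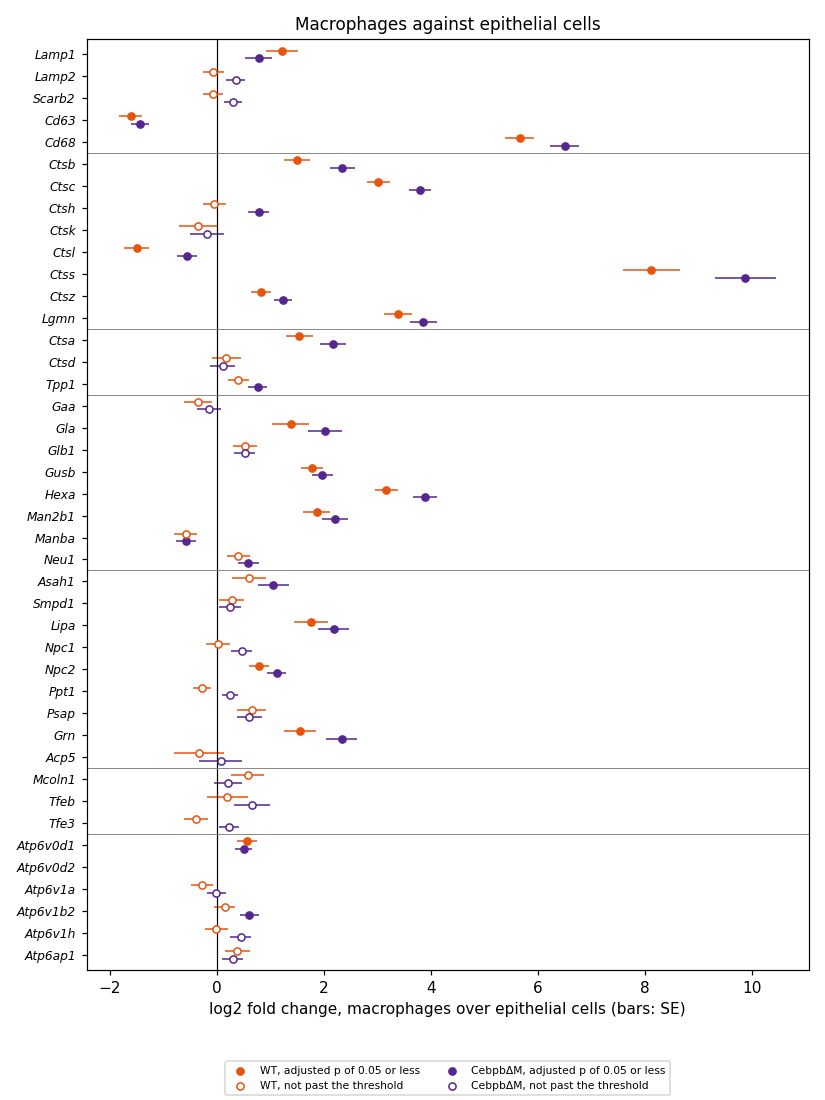
Log2 fold change of macrophages over MECs for each lysosome gene in WT (orange) and in CebpbΔM libraries (purple), with bars for the standard error. Filled points passed an adjusted p of 0.05 and open points did not. Ctss, Cd68, Lgmn, Hexa and Ctsc lie above 3 in both genotypes, Cd63 and Ctsl lie below 0 in both, and Atp6v0d2, at 0 in MECs, is not drawn.

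Cysteine proteases held the largest of these differences. Ctss was at 1.21 and 1.91 CPM in WT MECs, 1.34 and 0.27 CPM in CebpbΔM MECs, 427 and 444 CPM in WT macrophages and 605, 746, 758 and 919 CPM in the libraries labelled CebpbΔM. All macrophage libraries were far above all MEC libraries, with a log2 fold change of 8.12 in WT (SE 0.54, QL adjusted p = 2.37e-06) and 9.87 in CebpbΔM (SE 0.57, QL adjusted p = 6.14e-07). Ctsc, the dipeptidyl peptidase cathepsin C, was at 65.0 and 65.3 CPM in WT MECs and at 443 and 615 CPM in WT macrophages, a log2 fold change of 3.02 (SE 0.21, QL adjusted p = 3.63e-06). Lgmn was at 93.3 and 86.2 CPM in WT MECs and at 801 and 1079 CPM in WT macrophages, 3.39 higher on the log2 scale (SE 0.26, QL adjusted p = 6.16e-06). Neither gene overlapped between the cell types. Ctsb was also higher in macrophages, at 3563 and 4439 CPM against 1382 and 1438 CPM in WT MECs (log2 fold change 1.5, SE 0.25, QL adjusted p = 0.0013), and so was Ctsz, the carboxypeptidase cathepsin Z (0.82, SE 0.19, QL adjusted p = 0.00885).

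Ctsl, a close relative of these enzymes, went the other way. It was at 1016 and 1041 CPM in WT MECs and at 368 and 361 CPM in WT macrophages, a log2 fold change of -1.5 (SE 0.23, QL adjusted p = 8.55e-04). In the CebpbΔM libraries it was at 922 and 697 CPM in MECs and between 468 and 692 CPM in macrophages, so no macrophage library reached the lowest MEC library (log2 fold change -0.55, SE 0.19, QL adjusted p = 0.0458). Ctsh and Ctsk, cathepsins H and K, were not called in WT, at -0.04 and -0.34 on the log2 scale. Ctsh was called higher in CebpbΔM macrophages (0.78, SE 0.19, QL adjusted p = 0.00912).

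Among the other peptidases, Ctsa, the protective protein of the lysosomal sialidase, was at 337 and 305 CPM in WT MECs and at 806 and 1062 CPM in WT macrophages, a log2 fold change of 1.54 (SE 0.25, QL adjusted p = 0.00128). Ctsd was not called in either genotype, at 0.18 in WT and 0.11 in CebpbΔM, and its levels in the cell types overlapped in CebpbΔM, between 730 and 1228 CPM in macrophages and at 1016 and 783 CPM in MECs. Tpp1, the tripeptidyl peptidase, was at 0.41 in WT (QL adjusted p = 0.155) and was called in CebpbΔM at 0.77 (SE 0.18, QL adjusted p = 0.00623).

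The membrane proteins were split. Cd68, a sialomucin of macrophage endosomes and lysosomes, was at 7.28 and 7.80 CPM in WT MECs and at 383 and 380 CPM in WT macrophages, a log2 fold change of 5.66 (SE 0.27, QL adjusted p = 4.32e-07). Lamp1 was higher by 1.23 (SE 0.29, QL adjusted p = 0.0112). Cd63 was lower in macrophages, at 233 and 196 CPM against 617 and 693 CPM in WT MECs (log2 fold change -1.61, SE 0.21, QL adjusted p = 2.72e-04). Lamp2, the other major glycoprotein of the lysosomal membrane, and Scarb2, the receptor that carries glucocerebrosidase, were at -0.06 and -0.07 on the log2 scale in WT and were not called in either genotype. The call of Lamp1 was lost in WT without WT MEC 1 (QL adjusted p = 0.0944) and in CebpbΔM, where it was at 0.78, without CebpbΔM MEC 3 (QL adjusted p = 0.226).

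Of the 8 glycosidases, 4 were higher in WT macrophages, 5 in CebpbΔM macrophages, and 0 and 1 were lower, beside the shares of all genes given above (14.8% and 18.9% higher, 10.7% and 14.7% lower). Hexa, the α subunit of β-hexosaminidase that cuts GM2 ganglioside, was at 53.2 and 42.9 CPM in WT MECs and at 397 and 469 CPM in WT macrophages, a log2 fold change of 3.17 (SE 0.22, QL adjusted p = 3.31e-06). Man2b1, an α-mannosidase, was higher by 1.87 (SE 0.26), Gusb, β-glucuronidase, by 1.78 (SE 0.21) and Gla, α-galactosidase A, by 1.38 (SE 0.34), with BH-adjusted QL p-values of 4.12e-04, 1.32e-04 and 0.0128. Neu1, the sialidase, was called in CebpbΔM (0.59, SE 0.19, QL adjusted p = 0.0369). The β-mannosidase Manba was at 91.2 and 101 CPM in WT MECs and at 64.0 and 64.8 CPM in WT macrophages, with log2 fold changes of -0.58 in both genotypes and a BH-adjusted QL p of 0.0753 in WT and 0.0329 in CebpbΔM. Gaa and Glb1, the acid α-glucosidase and β-galactosidase, were not called.

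Lipid handling and other luminal proteins gave 3 genes higher of 9 in WT and 4 of 9 in CebpbΔM, and 0 lower. Of all genes, 14.8% and 18.9% were higher in these contrasts and 10.7% and 14.7% lower. Lipa, the acid lipase that frees cholesterol and fatty acids, was at 68.2 and 63.5 CPM in WT MECs and at 247 and 201 CPM in WT macrophages (log2 fold change 1.77, SE 0.32, QL adjusted p = 0.0022). Grn was at 564 and 376 CPM in WT MECs and at 1254 and 1518 CPM in WT macrophages (1.56, SE 0.30, QL adjusted p = 0.00323). Npc2, which binds cholesterol in the lumen, was higher by 0.79 (SE 0.19, QL adjusted p = 0.0116), while Npc1, the membrane protein that takes cholesterol over from it, was at 0.02 (SE 0.22). The acid ceramidase Asah1 was called in CebpbΔM at 1.06 (SE 0.28, QL adjusted p = 0.0144). Ppt1, Psap, Smpd1 and Acp5, a thioesterase, the saposin precursor, acid sphingomyelinase and tartrate-resistant acid phosphatase, were called in neither genotype.

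The calcium channel Mcoln1 and the factors Tfeb and Tfe3 were called in neither genotype. Tfeb was at 9.47 and 5.04 CPM in WT MECs and at 7.42 and 9.19 CPM in WT macrophages, and Tfe3 at 149 and 115 CPM against 93.0 and 110 CPM, so the highest Tfe3 value in macrophages lay under the lowest in MECs without passing the test (log2 fold change -0.38, SE 0.22, QL adjusted p = 0.243). In the V-ATPase, Atp6v0d1, the d1 subunit of the membrane sector, was higher by 0.57 in WT (SE 0.19, QL adjusted p = 0.0461) and by 0.50 in CebpbΔM (SE 0.16, QL adjusted p = 0.036). Atp6v1b2, a subunit of the cytosolic sector, was called in CebpbΔM at 0.61 (SE 0.18, QL adjusted p = 0.0235). Atp6v1a, Atp6v1h and Atp6ap1 were called in neither.

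Atp6v0d2, the d2 subunit known from osteoclasts and macrophages, had 0 counts in all 4 MEC libraries. It had 550 counts in WT macrophage 4 and 0 in WT macrophage 5, and 210, 342, 187 and 193 counts in the libraries labelled CebpbΔM 4, 5, 6 and 7. Over the groups' means and with a floor of 3 counts per MEC library, it was at least 113-fold higher in WT macrophages and at least 103-fold higher in CebpbΔM macrophages. The test called it in both (QL adjusted p = 0.0231 and 0.0165), but without WT macrophage 4 the WT comparison had 0 counts on both sides. With Atp6v0d2 at these bounds, the medians over the 42 genes were still 0.47 and 0.61.

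Other lysosomal genes were counted from lists drawn up with the results of the 42 known, and their counts in WT stand beside the 14.8% of all genes that were higher and the 10.7% that were lower. Of 30 other luminal hydrolases, 13 were higher and 0 lower in WT macrophages, among them Plbd1, a phospholipase B-like protein, at a log2 fold change of 4.93, Pla2g15, a lysosomal phospholipase A2, at 3.35 and Prcp, a carboxypeptidase, at 2.26. Of 24 other lysosomal membrane proteins tested, 8 were higher and 1 lower, led by Laptm5, a protein of blood cell lysosomes, at 9.66 and Slc11a1, a metal transporter of phagocytes, at 5.38, with Abcb9, a peptide transporter, at -1.25. Of 16 further V-ATPase subunits, 2 were higher and 3 lower, shares near those of all genes. Atp6v0a1 was at 1.22 and Atp6v1b1 at -2.50. Among 19 genes that control TFEB and its relatives, 3 were higher and 2 lower, again near the shares of all genes. Rptor, a subunit of mTORC1, was at 1.0, and Lamtor4, part of the complex that recruits mTORC1 to the lysosome, at -0.86. Tfec, a TFEB relative, was called as higher, but at 1.91 and 6.09 CPM in WT macrophages and 0 in WT MECs. Of 16 genes of enzyme delivery and fusion, 2 were higher, near the share of all genes, and 0 lower. Of the 4 tested inhibitors of cysteine cathepsins, Cst3, cystatin C, was higher at 1.65 and Cstb, cystatin B, lower at -2.21. The median log2 fold changes of the hydrolases and the membrane proteins were 0.73 and 0.52, and that of the V-ATPase subunits was -0.25, beside 0.06 over all genes.

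The libraries labelled CebpbΔM were compared with WT within macrophages, to ask whether lysosome genes change with the deletion. Of the 42 genes, 0 passed an adjusted p of 0.05 with the QL test, and so did 0% of the 17772 genes tested. At an unadjusted p under 0.05, 12 of the 42 were higher and 0 lower, where 4.96% and 3.67% of all genes were. The genotypes did not overlap for 16 of the 42, all higher, where 10.4% of all genes were higher without overlap and 8.1% lower. The log2 fold change was above 0 for 36 of the 42 and for 50.4% of all genes, with medians of 0.27 and 0.004. The likelihood ratio test called 0 of the 42 among 138 genes (0.777%). DESeq2 called 2 of the 42 among 201 genes (1.13%), which were Ctss (adjusted p = 0.0204) and Ctsc (adjusted p = 0.0437). For 4 libraries against 2, the smallest two-sided p of an exact permutation test on one gene is 0.133.

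Cysteine proteases again held the largest share, with 6 of 8 genes higher without overlap and a median of 0.57. Of all genes, 10.4% were higher without overlap. The role of Mcoln1, Tfeb and Tfe3 came next, with 2 of 3 genes and a median of 0.45. Ctss, at 605, 746, 758 and 919 CPM against 427 and 444 CPM in WT, was the gene with the smallest p of the 42 (log2 fold change 0.77, SE 0.19, QL adjusted p = 0.452). Ctsc was at 771, 840, 935 and 886 CPM in the libraries labelled CebpbΔM 4 to 7 and at 443 and 615 CPM in WT (0.67, SE 0.18, QL adjusted p = 0.468). Ctsh was at 319, 346, 345 and 419 CPM against 205 and 251 CPM (0.62, SE 0.18, QL adjusted p = 0.482). Ctsb was at 4609, 5378, 6518 and 7788 CPM against 3563 and 4439 CPM (0.58, SE 0.23, QL adjusted p = 0.547). For each of these 4 genes the lowest library labelled CebpbΔM lay above the higher WT library. The genotypes overlapped for Lgmn, at 943, 1124, 1353 and 1404 CPM against 801 and 1079 CPM, and for Ctsk, at 35.0, 71.3, 39.5 and 54.5 CPM against 62.9 and 34.0 CPM.

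In the other roles, Cd68 was at 475, 562, 544 and 740 CPM against 383 and 380 CPM (log2 fold change 0.58, SE 0.20, QL adjusted p = 0.521), and Grn at 1860, 1889, 2300.4 and 2348 CPM against 1254 and 1518 CPM (0.57, SE 0.17, QL adjusted p = 0.495). Hexa and Npc2 had log2 fold changes of 0.47 and 0.40, Ppt1 0.49 and Tfe3 0.45, all without overlap. Tfeb did not overlap either, at 12.5, 15.6, 9.34 and 14.9 CPM against 7.42 and 9.19 CPM (0.63, SE 0.30, QL adjusted p = 0.598). The V-ATPase lay nearest to 0, with a median of 0.002 and values between -0.19 for Atp6v0d2 and 0.30 for Atp6v1b2. Ctsd, the most abundant peptidase of MECs, was at 730, 810, 1124 and 1228 CPM against 1058 and 859 CPM (-0.003, SE 0.24). Of the 6 genes below 0, Manba at -0.17 and Atp6v0d1 at -0.17 were the farthest beside Atp6v0d2. Among the other lysosomal lists, 0 genes were called, and the median was 0.16 for the 30 hydrolases and 0.03 for the 24 membrane proteins. For the 16 further V-ATPase subunits it was 0.15, with 14 of them above 0, where 50.4% of all genes were. It was 0.15 for the 19 genes that control TFEB and -0.01 for the 16 of enzyme delivery and fusion. For the 3 inhibitors of cysteine cathepsins tested it was 0.38.

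**Figure D3:**
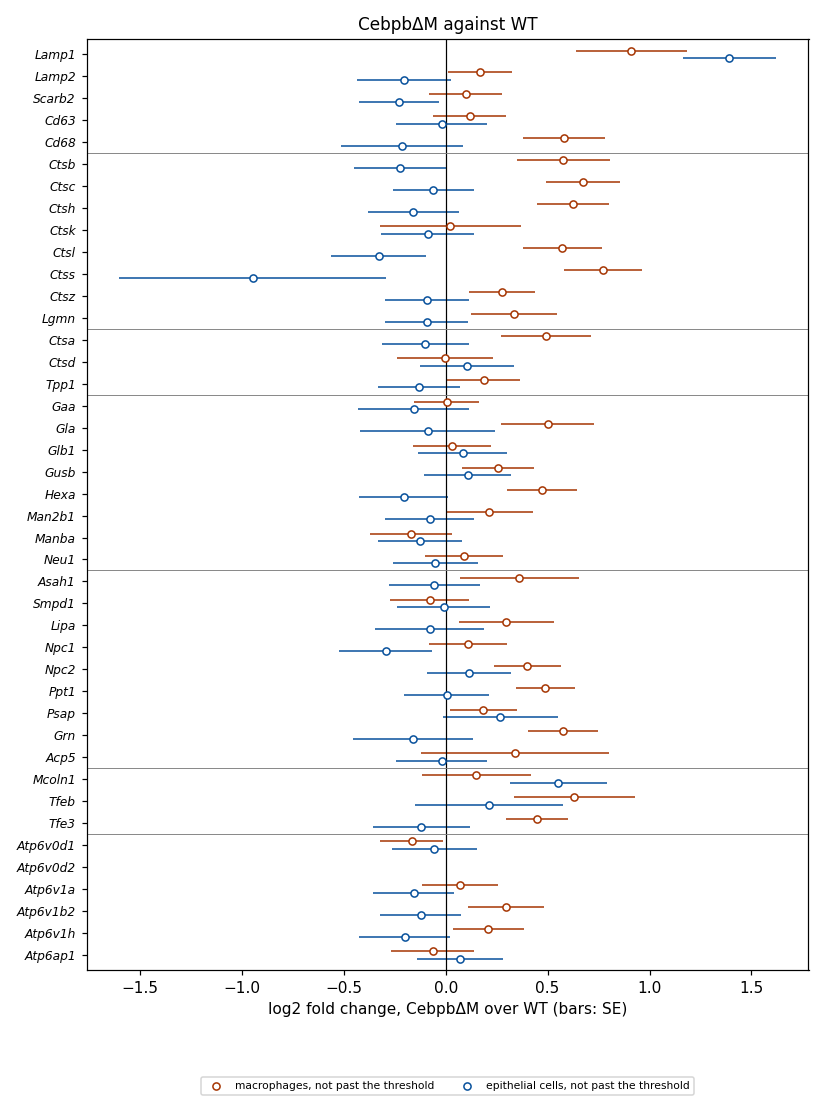
Log2 fold change of CebpbΔM over WT for each lysosome gene in macrophages (brown) and in MECs (blue), with bars for the standard error. Open points did not pass an adjusted p of 0.05, which holds for every gene in both cell types. Most macrophage points lie to the right of 0 and most MEC points to its left, while Lamp1 lies at 0.91 and 1.39, and Atp6v0d2 is not drawn.

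Macrophage markers moved with these differences. All 12 had a log2 fold change above 0 in the libraries labelled CebpbΔM, 7 of them without overlap, with a median of 0.58, and 0 were called. The 12 luminal epithelial markers had 11 below 0, with a median of -0.29 and 0 called. The summed levels of these 2 lists, given above, did not overlap between the genotypes. Other epithelial genes lay the other way. All 10 basal epithelial markers were above 0, with a median of 0.83 and 0 called, and summed to 3610, 2443, 2472 and 987 CPM in the libraries labelled CebpbΔM 4, 5, 6 and 7 against 1536 and 1123 CPM in WT, so the genotypes overlapped. The 6 milk protein genes tested were above 0 as well, 4 of them at an unadjusted p under 0.05 and 0 called, and the list summed to 772, 126, 112 and 61.7 CPM against 120 and 79.2 CPM, which also overlapped. The B and plasma cell list summed to 173 and 182 CPM in WT, against 271 to 415 CPM in the libraries labelled CebpbΔM. For T and NK cells the sums were 7.88 and 11.9 CPM against 14.3 to 24.3 CPM, and neither list overlapped. The dendritic cell list (341 and 484 CPM against 448 to 763 CPM) and the neutrophil and mast cell list did overlap. The part of all these cells in the lysosome gene values was not tested, and the fits that follow are descriptions. A covariate of the mean macrophage marker level was an alternative chosen after seeing the data. With it, the median over the 42 genes was 0.07 in place of 0.27, and 22 of the 42 lay above 0 in place of 36. With the luminal and basal epithelial markers as the covariate they were 0.28 and 36. The summed macrophage markers did not overlap between the genotypes, so the fit with these markers cannot tell their level apart from genotype. In replicates 4 and 5 of both genotypes alone, 33 of the 42 lay above 0 and the median was 0.13. The libraries labelled CebpbΔM 6 and 7, where the few Cebpb counts were lowest, were also compared alone with WT, likewise chosen after seeing the data. There, 35 lay above 0 and the median was 0.35. Each of these fits called 0 of the 42.

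**Figure D4:**
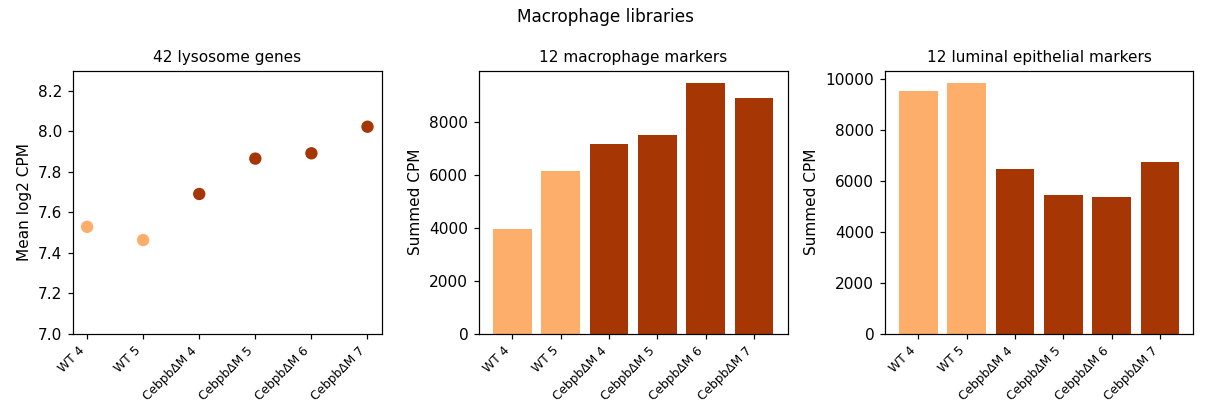
Mean log2 CPM of the 42 lysosome genes (left, points; the axis starts at 7), summed CPM of 12 macrophage markers (middle, bars) and of 12 luminal epithelial markers (right, bars) in the 6 macrophage libraries, WT in orange and CebpbΔM in brown. The lysosome genes and the macrophage markers are lower in both WT libraries than in every CebpbΔM library, and the luminal epithelial markers are higher in both.

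In MECs, 41 of the 42 genes could be tested between CebpbΔM and WT, Atp6v0d2 having no counts. The QL test called 0 of the 41, where 0.0446% of 15698 genes were higher and 0.00637% lower (0.051% in either direction), and the likelihood ratio test and DESeq2 each called 1, Lamp1, where they called 1.14% and 1.03% of all genes. At an unadjusted p under 0.05, 2 of the 41 were higher, Lamp1 and Mcoln1, and 0 lower, where 3.99% and 1.43% of all genes were. The genotypes did not overlap for 2 genes higher and 9 lower, where 13.6% and 14.5% of all genes did not. The log2 fold change was above 0 for 10 of the 41, against 48.6% of all genes, with medians of -0.09 and -0.01. This lean rested on CebpbΔM MEC 3, without which 22 of the 41 lay above 0 and the median was 0.01. All 8 cysteine proteases were below 0, between -0.06 for Ctsc and -0.95 for Ctss, with a smallest BH-adjusted QL p of 1.0. Mcoln1, the channel that releases lysosomal calcium, was at 40.0 and 56.9 CPM in WT MECs and at 78.1 and 62.5 CPM in CebpbΔM MECs (log2 fold change 0.55, SE 0.24, QL adjusted p = 0.862).

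Lamp1, the most abundant glycoprotein of the lysosomal membrane in many cells, had the highest log2 fold change of the 42 genes between genotypes in both cell types. It was at 39.8 and 50.3 CPM in WT MECs and at 132 and 102 CPM in CebpbΔM MECs. It was at 109 and 102 CPM in WT macrophages, and in the libraries labelled CebpbΔM 4 to 7 at 238, 171, 138 and 259 CPM. In neither cell type did the genotypes overlap. In MECs the log2 fold change was 1.39 (SE 0.23), with a BH-adjusted QL p of 0.0745, 3.55e-05 with the likelihood ratio test and 6.65e-05 with DESeq2. Over the alternatives that p ranged from 3.55e-05 to 0.739, and 7 of the 12 passed 0.05. In macrophages it was 0.91 (SE 0.27, QL adjusted p = 0.495), and 1.27 with the macrophage markers as a covariate. The mean of both genotype effects, a contrast chosen after seeing the data, was 1.16 (SE 0.20), with a BH-adjusted QL p of 0.355, 3.96e-04 with the likelihood ratio test and 8.37e-05 with DESeq2. That contrast gave 2 of the 42 higher at an unadjusted p under 0.05, Lamp1 and Ctsc, and 0 lower, where 4.01% and 1.82% of all genes were, and 31 of the 42 above 0, where 50.9% of all genes were.

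The Lamp1 gene lies at chr8:13159161-13175338 on the plus strand of GRCm38, and its last 3317 bases are shared with Grtp1, a gene for a putative GTPase activator, on the minus strand. Grtp1 was at 22.2 and 26.1 CPM in WT MECs and at 51.7 and 44.9 CPM in CebpbΔM MECs, a log2 fold change of 1.02 (SE 0.23, QL adjusted p = 0.149). In macrophages it was at 42.8 and 43.7 CPM in WT and at 78.2, 63.7, 52.9 and 88.3 CPM in the libraries labelled CebpbΔM 4 to 7, a log2 fold change of 0.69 (SE 0.23, QL adjusted p = 0.521). Both genes were thus higher in every CebpbΔM library than in any WT library of the same cell type, and in macrophages both put the libraries labelled CebpbΔM in the same order. Counting used the strand of the reads, but the sources used here do not say that the library kit marks strand, so the part of Grtp1 in the Lamp1 result was not tested. Of the 42 genes, 17 overlap another gene, 14 of them one on the opposite strand. Ctsl, Ctss, Ctsd, Glb1 and Manba overlap one on the same strand, which for Ctsd is Gm49369 over chr7:142375911-142382667. The part of these overlaps in the levels was not tested.

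**Figure D5:**
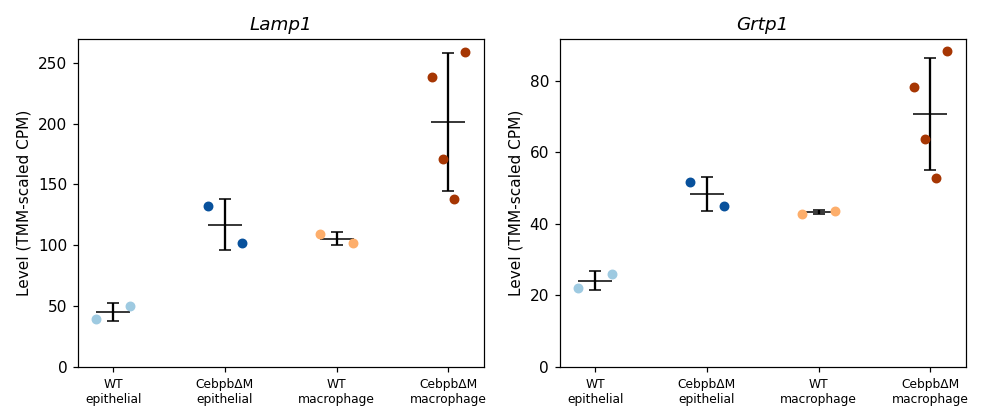
Level of Lamp1 (left) and of Grtp1, the gene that overlaps its end on the opposite strand (right), in TMM-scaled CPM, with 1 point per library, the group mean as a horizontal mark and the SD as the bar (n = 2, 2, 2 and 4 from left to right). For both genes every CebpbΔM library lies above both WT libraries of its cell type.

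The difference between the genotype effects in macrophages and in MECs was taken as the interaction term of the fit to the 10 libraries. It passed an adjusted p of 0.05 for 0 of the 42 genes with the QL test, with the likelihood ratio test (53 genes called, 0.289%) and with DESeq2 (27 genes called, 0.147%), and for 0% of 18323 genes with the QL test. At an unadjusted p under 0.05, 8 of the 42 (Cd68, Ctsb, Ctsc, Ctsh, Ctsl, Ctss, Hexa and Ppt1) had the larger effect in macrophages and 0 in MECs, where 3.29% and 1.9% of all genes did, with 33 of the 42 above 0, where 53.6% of all genes were, and the median difference was 0.41 against 0.04 over all genes. For the 8 cysteine proteases it was above 0 throughout, with a median of 0.80. Ctss had the largest, at 1.76 (SE 0.62, QL adjusted p = 0.923), with counts in MECs so low that its level there was between 0.27 and 1.91 CPM. Ctsl followed at 0.94 (SE 0.30, QL adjusted p = 0.923). Lamp1 was at -0.44 (SE 0.38, QL adjusted p = 1.0), so its effects in the 2 cell types were not shown to differ.

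The genes with CACGTG in the promoter window are compared with the rest only by their medians. In WT macrophages against WT MECs the median log2 fold change was 0.57 for the 11 genes that hold it and 0.41 for the other 24, and between genotypes in macrophages it was 0.15 and 0.27. For TTGCNNAA, the medians were -0.04 for the 8 genes that hold it and 0.58 for the other 27 between the cell types, and 0.44 and 0.21 between genotypes in macrophages. These medians are descriptions with no test.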

How the data were processed

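The authors trimmed reads with Trimmomatic, aligned them to GRCm38 with HISAT2 and counted read pairs with featureCounts (version 1.6.2) on genes of Ensembl release 100, with the reverse-stranded setting and a minimum mapping quality of 10. The authors deposited raw counts, one table for each cell type, and 0 sample columns were left unmapped. Each fit dropped the 8951 genes shorter than 300 nt and those that did not exceed 1 CPM in 2 or more of its libraries. Groups follow the labels. Genotypes were compared within each cell type, and cell types and the interaction over all 10 libraries, with the quasi-likelihood test of edgeR (version 4.0.16, R 4.3.3), TMM and Benjamini-Hochberg adjustment over all genes tested. The study's methods name the likelihood ratio test, which was an alternative here beside DESeq2 (version 1.42.0). The scripts were tested on simulated data. Mean log2 CPM used a prior count of 2, and the floor is 3 counts. Promoters are RefSeq's on GRCm38.p6, matched by symbol. The 42 genes, their roles and all lists were chosen with earlier results of these data known. All 42 genes may be named, with full values for those called or among the 3 largest changes of a role, and up to 3 called genes per direction from each further list. Alternatives were normalization, filters, tools, the replicate number as a block, left-out libraries and marker covariates. Tables were handled with Python 3.11.15, pandas 2.3.3 and scipy, and figures drawn with matplotlib.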

Additional observations from a re-analysis of the deposited data

How the results depend on the processing

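The counts of called genes moved as follows. In macrophages between genotypes, DESeq2 called 2 of the 42 genes in place of 0, and leaving out each library gave 0 throughout. In MECs between genotypes, the likelihood ratio test, DESeq2 and no filter on low counts each called 1 in place of 0, and leaving out each library gave 0 to 1. The gene was Lamp1 in each case. In CebpbΔM macrophages against CebpbΔM MECs, leaving out each library gave 16 to 24 genes in place of 25, and in WT 14 to 19 in place of 19, while the share of all genes called went from 33.7% to between 19.1% and 36.2% and from 25.5% to between 13.4% and 26.8%. The interaction gave 0 throughout. The mean log2 difference between WT macrophages and WT MECs, 0.97, was 1.14 with library totals only and 0.84 as a median over the 42 genes, and leaving out each library gave 0.94 to 1.0. With library totals only, the median of all genes between these groups moved from 0.06 to 0.24 and that of the 42 from 0.47 to 0.65. Leaving out each library gave a mean difference of 0.32 to 0.43 between genotypes in macrophages and of -0.20 to 0.05 in MECs. The cause of these moves was not tested.

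Replicate numbers are shared by the genotypes, but the labels do not say that a number marks a shared mouse or day. The pairing check gave correlations of 0.10 in MECs and of 0.12 and -0.08 for macrophage replicates 4 and 5. With the replicate number as a block, Lamp1 was called in MECs (1 gene of the 42, among 205 genes in place of 8), 0 of the 42 were called in macrophages (12 genes in all) and 0 in the interaction, and the median in macrophages was 0.12 in place of 0.27. Among genes past an unadjusted p of 0.05 in a contrast, 1224 values over the alternatives kept their direction and their side of the threshold, 67 fell short of it and 22 newly passed it, and the mean genotype effect over both cell types gave 1 called gene in place of 0 with the likelihood ratio test and with DESeq2. The other genes changed direction more often, 16 of 30 in macrophages between genotypes with the macrophage markers as a covariate and 12 of 39 in MECs without CebpbΔM MEC 3. Most groups had 2 libraries, and the effect of depth on the calls was not tested.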

Other observations

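Of the 6 macrophage libraries, the one labelled CebpbΔM 7 held the highest level of 21 of the 42 lysosome genes and CebpbΔM 6 that of 11, while WT 4 held the lowest level of 20 and WT 5 of 12. Ctsk and Acp5, known from osteoclasts, had their highest levels in the library labelled CebpbΔM 5, at 71.3 and 58.9 CPM, beside 35.0 to 54.5 CPM and 16.2 to 38.9 CPM in the other libraries labelled CebpbΔM.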
